A study of Homo sapiens with 6 samples.

Results

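Genes that code for protein and carry a microRNA inside their span were followed by nascent transcription in SBC-3 cells, a human small cell lung cancer line, after siRNAs against SFPQ. The hosts were taken from a list of 48 gene symbols, of which 42 had a row in the deposited gene table of 25827 features. All 42 reached 10 normalized reads in at least 2 of the 6 libraries, and they are the hosts described here. PTPRN, SLIT3, ARPP21, ASTN1, GRM8 and TRPM3 had no row in that table.

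PRO-seq, a sequencing readout of RNA that polymerases were elongating when the cells were permeabilized, was run on 3 groups of 2 libraries each. Cells received siSFPQ-2 or siSFPQ-3, both directed against SFPQ, or the control siRNA siCtrl, at 10 nM, and were harvested after 72 h. The line is wild type by its labels and all 6 libraries come from it. SFPQ encodes a nuclear protein that binds nucleic acids, and the comparisons address how its depletion alters transcription of primary microRNA transcripts. Whether the 2 libraries of a group were grown apart is not stated in the labels, and p-values reflect only how far these libraries lie from each other, which may be technical spread.

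Many animal microRNAs have no promoter of their own. They are cut as hairpins from introns or exons of a longer transcript by the Microprocessor, the nuclear complex of DROSHA and DGCR8, and then by DICER1. A host that is transcribed more or less often therefore delivers more or less of the primary transcript, although processing and stability, which PRO-seq does not read, also set the level of the mature microRNA. The seed, bases 2 to 8 of the mature strand, pairs with target messages, and microRNAs that share it are grouped as a family.

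Several hosts are paralogs that carry microRNAs of the same family. The following mature sequences (RefSeq, GRCh38.p14, 5′ to 3′, seed in capitals) are shown because the hosts of one family are set side by side below.
hsa-miR-103a-3p, in PANK3 on chromosome 5 and in PANK2: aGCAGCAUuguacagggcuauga
hsa-miR-107, in PANK1 on chromosome 10: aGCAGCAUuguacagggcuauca
hsa-miR-33a-5p, in SREBF2 on chromosome 22: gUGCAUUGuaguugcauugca
hsa-miR-33b-5p, in SREBF1 on chromosome 17: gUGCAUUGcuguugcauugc
hsa-miR-152-3p, in COPZ2 on chromosome 17: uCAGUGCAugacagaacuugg
hsa-miR-148b-3p, in COPZ1 on chromosome 12: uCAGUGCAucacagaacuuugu
hsa-miR-26a-5p, in CTDSPL on chromosome 3 and in CTDSP2: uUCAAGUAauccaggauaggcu
hsa-miR-26b-5p, in CTDSP1 on chromosome 2: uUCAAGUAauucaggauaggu
The mature sequences of miR-103a and miR-107 share the seed GCAGCAU, and those of miR-33a and miR-33b share UGCAUUG. The seed is CAGUGCA for miR-148b and miR-152, and UCAAGUA for the miR-26 family.

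Further hosts that changed carry the next microRNAs, given with their place on GRCh38.p14; those of IGF2 and PTPRN2 are not printed. None shares its seed with another sequence printed here except the pair in SKA2.
hsa-miR-139-5p, in PDE2A, chr11:72615102-72615124, minus strand: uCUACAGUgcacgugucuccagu
hsa-miR-28-3p, in LPP, chr3:188688834-188688855, plus strand: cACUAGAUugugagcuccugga
hsa-miR-628-5p, in CCPG1, chr15:55372991-55373012, minus strand: aUGCUGACauauuuacuagagg
hsa-miR-218-5p, in SLIT2, chr4:20528299-20528319, plus strand: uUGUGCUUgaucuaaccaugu
hsa-miR-301a-3p, in SKA2, chr17:59151149-59151171, minus strand: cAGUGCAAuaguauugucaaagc
hsa-miR-454-3p, in SKA2, chr17:59137787-59137809, minus strand: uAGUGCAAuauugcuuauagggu
hsa-miR-199a-5p, in the span of DNM3 on the other strand, chr1:172144592-172144614, minus strand: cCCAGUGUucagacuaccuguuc
hsa-miR-214-3p, in the span of DNM3 on the other strand, chr1:172138816-172138837, minus strand: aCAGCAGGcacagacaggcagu

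The annotation placed 70 microRNA genes inside the spans of the 42 hosts. Of these, 54 lie on the strand of the host and 12 on the opposite strand, and for 4 the tables used here give no strand of the host or the microRNA. Those on the opposite strand include the genes of miR-199a in DNM2 and DNM3, of miR-214 in DNM3, of miR-215 and miR-194-1 in IARS2 and of miR-133a-1 and miR-1-2 in MIB1. For these microRNAs the label of a host does not hold by strand, since a transcript of the host does not contain them in sense. Gene positions are those of RefSeq on the same build. No exon annotation was used here, so that a microRNA is given as lying in the span of its host without a call of intron or exon.

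The libraries held 12072813 to 18475158 reads over all features, and 1 read was worth 0.797 to 1.11 normalized reads. SFPQ itself had 1825 and 1972 normalized reads with siSFPQ-2, 1922 and 2466 with siSFPQ-3, against 2294 and 2435 with siCtrl, a log2 fold change of -0.22 (limma, adjusted p = 0.137). Since an siRNA acts on mature RNA, these reads are no measure of knockdown. Of 12 neuroendocrine markers of small cell lung cancer, 5 reached the filter. DLL3 was the marker among them that passed the test and fell (log2 fold change -0.83), and the summed level of the 5 was 499 to 688 in the siSFPQ libraries and 619 to 630.4 with siCtrl. CHGA, which encodes chromogranin A, had 0 to 5.54 normalized reads in all libraries. Of 8 tested markers of the non-neuroendocrine state, 5 rose and 2 fell. The summed level of the 8 was 8754 to 9800.0 in the siSFPQ libraries, against 7163 to 7506 with siCtrl. YAP1, the largest part of that sum, rose (4634 to 5431 with siSFPQ, against 3312 and 2856 with siCtrl), and MYC fell. Of the markers of other cell types, 2 of 3 immune genes, 1 of 1 endothelial and 1 of 3 fibroblast genes rose, and 1 immune gene fell. The part of these shifts in the values below was not tested, and fewer cells of a state and less RNA per cell cannot be told apart in bulk samples.

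With both siRNAs against siCtrl, 14 of the 42 hosts rose and 11 fell, while 17 did not pass the test (limma with Benjamini-Hochberg adjustment over 21773 features, adjusted p under 0.05). Over all tested features, 24.8% rose and 23.2% fell, or 48% in all, and among protein-coding features 28.4% rose and 23% fell. The hosts' share of calls was thus near that of genes at large. Their median log2 fold change was 0.098, beside -0.02 over all features. Changes of at least 1.5-fold were made by 6 of the hosts that rose and 5 of those that fell, and 3 in each direction reached 2-fold. Reads per host, not corrected for length, were 174 to 8166 in siCtrl mean with a median of 996.5. Without the first siCtrl library, 10 hosts rose and 6 fell, and without the second, 9 rose and 9 fell; over all features the counts then were 3961 higher and 2463 lower, and 3622 higher and 2529 lower.

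**Figure D1:**
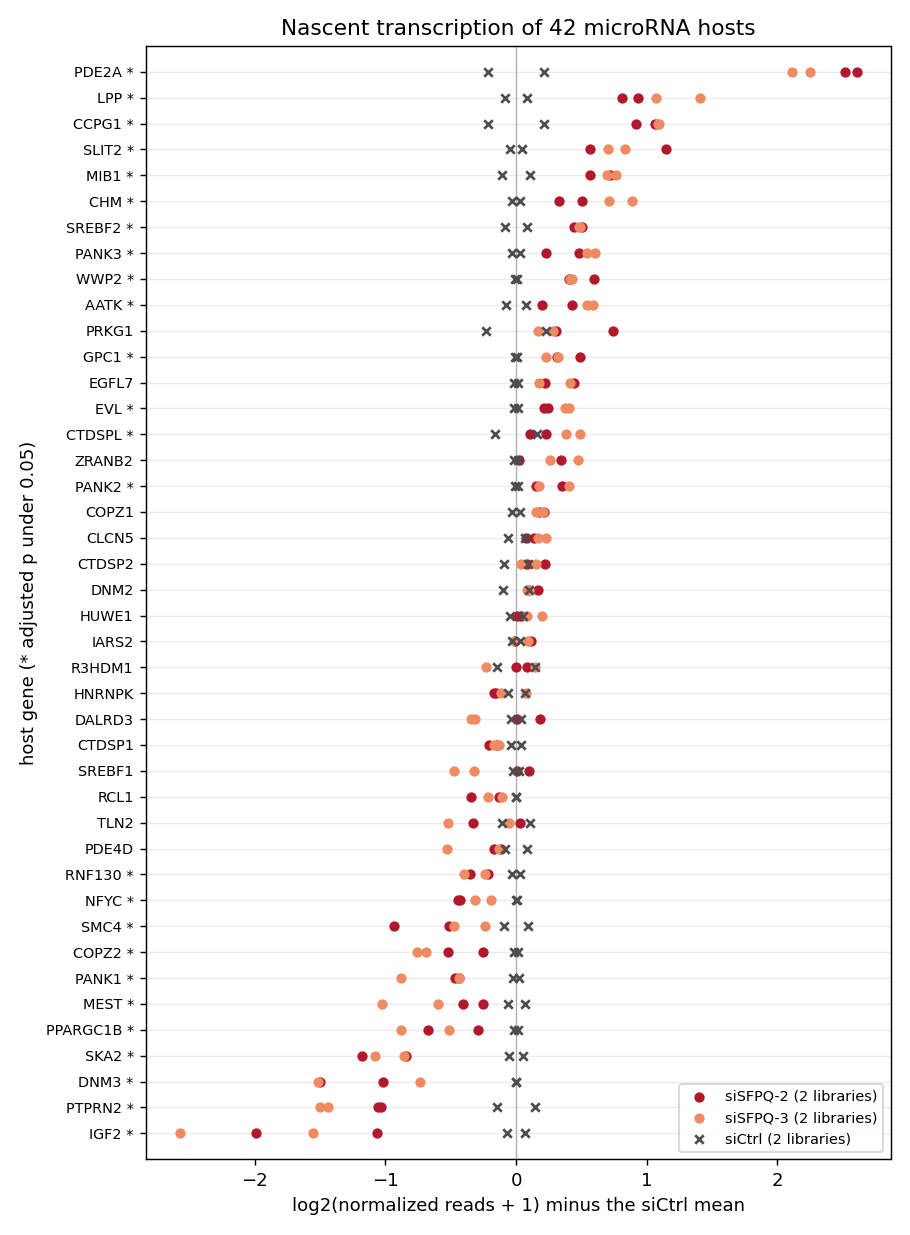
Each row is a host gene and each point a library, placed by log2(normalized reads + 1) minus the siCtrl mean of that gene, for siSFPQ-2, siSFPQ-3 and siCtrl (2 libraries each). The siSFPQ libraries of PDE2A lie farthest to the right (log2 fold change 2.37) and those of IGF2 farthest to the left (-1.79), and an asterisk marks the 25 hosts with an adjusted p under 0.05.

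PDE2A encodes a phosphodiesterase that degrades cyclic nucleotides, and spans 98.3 kb of the minus strand (chr11:72576141-72674422). It had 992 and 1055 normalized reads with siSFPQ-2, 749 and 824 with siSFPQ-3, against 148 and 201 with siCtrl. All siSFPQ libraries lay more than 3-fold above the higher siCtrl library, and the log2 fold change of 2.37 (SE 0.13, adjusted p = 4.08e-07) was the largest rise among the hosts. PDE2A is the host of miR-139, whose gene lies 59.3 kb from the start of the host, at 60.4% of its span. Other enzymes that act on phosphate groups moved less. AATK, which encodes an apoptosis-associated tyrosine kinase and carries miR-338, had 676 and 577 with siSFPQ-2, 729 and 753 with siSFPQ-3, against 529 and 475 with siCtrl. AATK rose (log2 fold change 0.44, adjusted p = 0.00604), with siSFPQ-3 alone (0.56) but not with siSFPQ-2 alone (0.32, adjusted p = 0.0615), a difference between the siRNAs that did not pass (adjusted p = 0.439), and its call was lost without the second siCtrl library (adjusted p = 0.0952). PDE4D, a cyclic AMP phosphodiesterase gene, had 5664 to 7517 in the siSFPQ libraries, against 7709 and 8622 with siCtrl, and did not pass (adjusted p = 0.178). It passed without the first siSFPQ-3 library (-0.34, adjusted p = 0.0434). PRKG1, a cyclic GMP-dependent kinase, had 281 to 419 in the siSFPQ libraries, against 213 and 292 with siCtrl, and the groups overlapped. It did not pass with both siRNAs (adjusted p = 0.0796), but did with siSFPQ-2 alone (0.52, adjusted p = 0.0471) and without the first siSFPQ-2 library (0.48, adjusted p = 0.024). The difference between the siRNAs did not pass (adjusted p = 0.559).

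Adhesion and cytoskeleton hosts included LPP, which encodes a zyxin-like protein of focal adhesions and carries miR-28 at 72.6% of its 738 kb span (chr3:188153021-188890671). LPP had 9051 and 8327 normalized reads with siSFPQ-2, 12566 and 10002 with siSFPQ-3, against 5025 and 4486 with siCtrl. Its log2 fold change was 1.05 (SE 0.13, adjusted p = 1.20e-04), and every siSFPQ library exceeded both siCtrl libraries by more than 1.5-fold. EVL, an actin-regulating protein of the Ena/VASP family and host of miR-342, had 2219 and 2169 with siSFPQ-2, 2480.2 and 2428 with siSFPQ-3, against 1895 and 1853 with siCtrl. EVL rose by a smaller amount (0.31, adjusted p = 0.0146), and its call did not hold when siCtrl library 1 was left out (adjusted p = 0.0806) or the second (0.11). TLN2, which encodes the integrin-linked protein talin 2, had 609 to 894 in the siSFPQ libraries, against 812 and 944 with siCtrl, and did not pass (adjusted p = 0.246), but did without the first siSFPQ-3 library (-0.34, adjusted p = 0.041).

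Hosts of membrane traffic moved in both directions. CCPG1 encodes a receptor for autophagy of the endoplasmic reticulum and carries miR-628. It had 689 and 761 normalized reads with siSFPQ-2, 777 and 776 with siSFPQ-3, against 422 and 314 with siCtrl (log2 fold change 1.04, SE 0.13, adjusted p = 9.06e-05). The groups did not overlap, but the span of CCPG1 (chr15:55355239-55408359) lies whole within the readthrough feature DNAAF4-CCPG1, whose log2 fold change was 0.72, and no source used here gives how reads were split between them. CHM, the Rab escort protein gene on the X chromosome and host of miR-361, had 356 and 402 with siSFPQ-2, 462 and 523 with siSFPQ-3, against 288 and 277 with siCtrl. CHM rose with both siRNAs together (0.61, adjusted p = 0.00139) and with each alone (0.42 and 0.80).

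DNM3, a dynamin that pinches vesicles from membranes and is abundant in neurons, spans 577 kb (chr1:171841498-172418466). It had 2232 and 1600.1 normalized reads with siSFPQ-2, 2726 and 1585 with siSFPQ-3, against 4531 and 4525 with siCtrl. DNM3 fell in all siSFPQ libraries (log2 fold change -1.19, SE 0.19, adjusted p = 6.21e-04), although those libraries also differed among themselves. This is a count for the gene as a whole, and signal was uneven along its span, as given below with the profiles. The antisense transcript DNM3OS, which runs against DNM3 and holds miR-199a-2 and miR-214, overlaps it by 7.96 kb. DNM3OS had 791 and 698 with siSFPQ-2, 795 and 568 with siSFPQ-3, against 1316 and 1329 with siCtrl (log2 fold change -0.90, adjusted p = 2.99e-04). No source used here says whether counting used strand, so reads of DNM3 and of DNM3OS cannot be told apart where they overlap. Of the microRNA features at this place, MIR214 on the minus strand had 15.2 to 21.0 normalized reads in the siSFPQ libraries and 46.5 and 51.0 with siCtrl, while MIR3120 on the plus strand, which lies within it, had 0 to 1.11 in all libraries.

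Signalling ligands and matrix proteins held the largest fall. IGF2, the imprinted gene of insulin-like growth factor 2 (chr11:2129117-2149566) and host of miR-483, had 2064 and 1088 normalized reads with siSFPQ-2, 1469 and 727 with siSFPQ-3, against 4126 and 4526 with siCtrl. Its siSFPQ libraries spread widely and all lay below both siCtrl libraries (log2 fold change -1.79, SE 0.27, adjusted p = 4.03e-04). IGF2 shares 8.15 kb with the annotated antisense gene IGF2-AS, which had a log2 fold change of -1.35. SLIT2, a secreted guidance ligand of ROBO receptors and host of miR-218-1, went the other way, with 822 and 1228 with siSFPQ-2, 903 and 990.5 with siSFPQ-3, against 537 and 572 with siCtrl (0.81, SE 0.14, adjusted p = 0.001). GPC1, a heparan sulfate proteoglycan of the cell surface and host of miR-149, had 547 and 618 with siSFPQ-2, 515 and 549.9 with siSFPQ-3, against 437 and 442 with siCtrl. GPC1 rose (0.34, adjusted p = 0.0182), but not without the first siCtrl library (adjusted p = 0.119), the second (0.106) or the second siSFPQ-2 library (0.0524). EGFL7, an endothelial secreted protein gene that carries miR-126, had 238 to 287 in the siSFPQ libraries, against 209 and 213 with siCtrl. All its siSFPQ libraries were higher, yet it did not pass (0.31, adjusted p = 0.0705); with siSFPQ-3 library 2 left out it did (0.37, adjusted p = 0.0408).

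The 2 hosts that act on chromosomes span 30 to 100 kb, where 18.1% of protein-coding features fell, and both fell. Nothing is read from a count of 2. SKA2, a subunit of the complex that couples kinetochores to spindle microtubules, carries miR-301a and miR-454. It had 915 and 725 normalized reads with siSFPQ-2, 906 and 777 with siSFPQ-3, against 1706 and 1586 with siCtrl. SKA2 thus stood near 1.98-fold lower in mean (log2 fold change -0.99, SE 0.12, adjusted p = 7.60e-05), and by a like amount with each siRNA (-1.01 and -0.97). SMC4, a condensin subunit whose span holds miR-15b and miR-16-2, had 1142 and 856 with siSFPQ-2, 1388 and 1175 with siSFPQ-3, against 1739 and 1534 with siCtrl. SMC4 fell (-0.54, adjusted p = 0.00584), past the threshold with siSFPQ-2 (-0.72) and not with siSFPQ-3 (-0.36, adjusted p = 0.0759); the difference between the siRNAs did not pass (adjusted p = 0.343). Its call did not hold when siCtrl library 1 was left out (adjusted p = 0.0914).

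Transcription factor hosts included NFYC, a subunit of the CCAAT-binding factor NF-Y, which carries miR-30e and miR-30c-1. NFYC had 1581 and 1597 normalized reads with siSFPQ-2, 1888 and 1729.8 with siSFPQ-3, against 2148 and 2160.2 with siCtrl. The fall was modest (log2 fold change -0.35, adjusted p = 0.00894) and was not called without the first siCtrl library (adjusted p = 0.0691) or the second (0.0759). PPARGC1B, a coactivator of nuclear receptors in mitochondrial metabolism and host of miR-378a, had 655 and 503 with siSFPQ-2, 561 and 436 with siSFPQ-3, against 813 and 794 with siCtrl. It fell with both together (-0.59, adjusted p = 0.00452) and with each siRNA (-0.48 and -0.70), but not without the first siCtrl library (adjusted p = 0.0564).

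Of 4 ubiquitin ligase hosts 2 rose and 1 fell, and all 4 span more than 100 kb, where 51.1% of protein-coding features rose. MIB1, which ubiquitinates Notch ligands, had 1924 and 2139 normalized reads with siSFPQ-2, 2209 and 2108 with siSFPQ-3, against 1402 and 1208 with siCtrl (log2 fold change 0.69, SE 0.10, adjusted p = 3.23e-04). WWP2, a HECT-type ligase and host of miR-140, had 1371 and 1560.2 with siSFPQ-2, 1378 and 1392 with siSFPQ-3, against 1038 and 1027 with siCtrl (0.46, SE 0.09, adjusted p = 0.0022). Both kept every siSFPQ library above both siCtrl libraries. RNF130, a RING-type ligase and host of miR-340, had 1180.0 and 1069.7 with siSFPQ-2, 1158 and 1039 with siSFPQ-3, against 1394 and 1339 with siCtrl. RNF130 fell (-0.30, adjusted p = 0.0241), but its adjusted p was 0.165 when siCtrl library 1 was left out, 0.104 without siCtrl library 2, 0.0674 without siSFPQ-2 library 2 and 0.0509 without siSFPQ-3 library 2. HUWE1, which carries miR-98 and let-7f-2, had 2709.6 to 3098 in the siSFPQ libraries, against 2607 and 2792 with siCtrl, and did not pass (adjusted p = 0.503).

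MEST, an imprinted gene of a hydrolase-like protein and host of miR-335, had 6567 and 5914 normalized reads with siSFPQ-2, 5189.6 and 3847 with siSFPQ-3, against 8205 and 7499.6 with siCtrl. MEST fell (log2 fold change -0.57, adjusted p = 0.00592), past the threshold with siSFPQ-3 (-0.81) and not with siSFPQ-2 (-0.33, adjusted p = 0.12); the difference between the siRNAs did not pass (adjusted p = 0.243). The call did not hold when siCtrl library 1 was left out (adjusted p = 0.0708). PTPRN2, a phosphatase-like protein of secretory granules that spans 1049 kb (chr7:157539056-158587823) and carries miR-153-2, had 199.6 and 196 with siSFPQ-2, 151 and 144 with siSFPQ-3, against 371 and 452 with siCtrl. PTPRN2 fell with both together (-1.26, SE 0.13, adjusted p = 3.44e-05) and with each siRNA (-1.05 and -1.47).

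The hosts of miR-103a and miR-107 are the pantothenate kinases, which catalyse the first step of coenzyme A synthesis. PANK1, host of miR-107, had 946 and 927 normalized reads with siSFPQ-2, 945 and 694 with siSFPQ-3, against 1302 and 1261 with siCtrl. PANK1 fell (log2 fold change -0.56, SE 0.12, adjusted p = 0.0035). PANK3, host of miR-103a-1, had 769 and 918 with siSFPQ-2, 959 and 1002 with siSFPQ-3, against 645 and 670.2 with siCtrl. It rose (0.46, SE 0.10, adjusted p = 0.00357), though not without the first siCtrl library (adjusted p = 0.052). PANK2, host of miR-103a-2, had 1446 and 1659.9 with siSFPQ-2, 1465 and 1719.7 with siSFPQ-3, against 1288 and 1308 with siCtrl. PANK2 passed narrowly (0.27, adjusted p = 0.0492), and its adjusted p was 0.212 when siCtrl library 1 was left out, 0.181 without siCtrl library 2, 0.132 without siSFPQ-2 library 2 and 0.108 without siSFPQ-3 library 2. The log2 ratio of PANK1 over PANK3 was 0.30 and 0.01 with siSFPQ-2, -0.02 and -0.53 with siSFPQ-3, against 1.01 and 0.91 with siCtrl. The summed reads of the 3 hosts were 3162 to 3505 in the siSFPQ libraries and 3234 to 3239 with siCtrl, ranges that overlap.

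Sterol regulatory factors host the miR-33 family. SREBF2, which drives cholesterol synthesis genes and carries miR-33a, had 2316 and 2418 normalized reads with siSFPQ-2, 2392 and 2377 with siSFPQ-3, against 1803 and 1606 with siCtrl, and rose (log2 fold change 0.48, SE 0.09, adjusted p = 0.00181). SREBF1, which drives fatty acid synthesis genes and carries miR-33b, had 1611 and 1715 with siSFPQ-2, 1155 and 1284 with siSFPQ-3, against 1627 and 1579.7 with siCtrl. SREBF1 was below siCtrl with siSFPQ-3 (-0.40, adjusted p = 0.0125) and level with siSFPQ-2 (0.05, adjusted p = 0.723), but the difference between the siRNAs did not pass (adjusted p = 0.124), nor did both together (-0.17, adjusted p = 0.149).

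COPZ1 and COPZ2 encode alternative zeta subunits of the COPI coat and carry miR-148b and miR-152. COPZ2 had 337 and 280.1 normalized reads with siSFPQ-2, 249.5 and 238 with siSFPQ-3, against 406 and 399 with siCtrl, and fell (log2 fold change -0.55, SE 0.12, adjusted p = 0.00328). COPZ1 had 1036 and 1061 with siSFPQ-2, 1018 and 1055 with siSFPQ-3, against 934 and 895 with siCtrl. All siSFPQ libraries of COPZ1 were higher, but it did not pass (0.19, adjusted p = 0.101). Of the dynamins, DNM3 was lower, as given above, and DNM2, the ubiquitous member, at 2145 and 2042 with siSFPQ-2, 2046 and 2024 with siSFPQ-3, against 2042 and 1780.2 with siCtrl (0.11, adjusted p = 0.347).

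The small phosphatases of the CTDSP group, which act on the tail of RNA polymerase II and on other substrates, host the miR-26 family. CTDSPL had 824 and 757 normalized reads with siSFPQ-2, 992 and 919 with siSFPQ-3, against 788 and 629 with siCtrl. The groups overlapped, and CTDSPL passed narrowly (log2 fold change 0.30, adjusted p = 0.0449). Its call was lost without the second siCtrl library (0.14, adjusted p = 0.463), the first siSFPQ-2 library (adjusted p = 0.0907) or the first siSFPQ-3 library (0.0717). CTDSP1 had 256 and 245 with siSFPQ-2, 252 and 258 with siSFPQ-3, against 276 and 290.2 with siCtrl (-0.16, adjusted p = 0.264). CTDSP2 had 1634 and 1789 with siSFPQ-2, 1580.0 and 1715 with siSFPQ-3, against 1446 and 1636 with siCtrl (0.13, adjusted p = 0.316), and neither passed. R3HDM1, an RNA-binding protein gene that carries miR-128-1, had 2268 and 2137 with siSFPQ-2, 2358 and 1819 with siSFPQ-3, against 2359.8 and 1935 with siCtrl, with overlapping groups (adjusted p = 0.994).

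For each of 9 pairs of hosts within a family, the log2 ratio of the 2 hosts was set against siCtrl by an exact two-sided permutation test over libraries. With 4 siSFPQ and 2 siCtrl libraries there are 15 arrangements, so p cannot go below 0.0667 and no pair could pass. The ratios did not overlap between the groups in 8 of the 9 pairs. No share for pairs of genes at large was worked out, and several pairs share a host. Of single features, 30.3% had every siSFPQ library above both siCtrl libraries and 31% below, so nothing about families is read from this count. The mean log2 ratio of PANK1 over PANK3 was -0.06 ± 0.34 (SD, n = 4) with siSFPQ and 0.96 ± 0.07 (SD, n = 2) with siCtrl (exact p = 0.0667, adjusted over the pairs 0.1). For DNM3 over DNM2 it was -0.06 ± 0.37 with siSFPQ and 1.25 ± 0.14 with siCtrl, for COPZ2 over COPZ1 -1.92 ± 0.23 and -1.18 ± 0.03, and for SREBF2 over SREBF1 0.74 ± 0.27 and 0.09 ± 0.09. The ratio of CTDSPL over CTDSP2 overlapped between the groups (exact p = 0.533, adjusted 0.533).

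**Figure D2:**
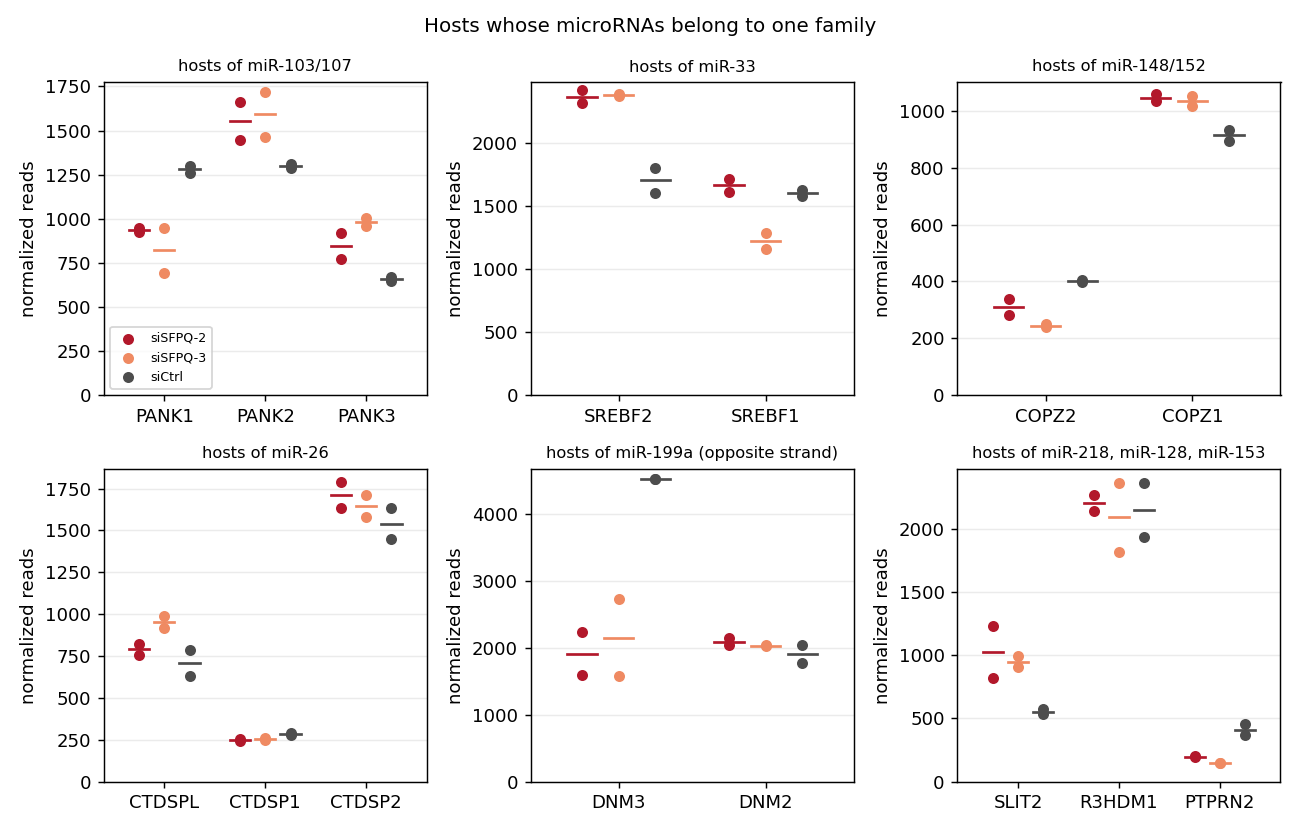
Normalized reads of hosts whose microRNAs belong to the named family, 1 point per library and a bar at the mean of the 2 libraries of siSFPQ-2, siSFPQ-3 and siCtrl, on axes that start at 0. PANK1, COPZ2, DNM3 and PTPRN2 sit lower in the siSFPQ groups and PANK3, SREBF2 and SLIT2 higher, while R3HDM1 overlaps.

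With siSFPQ-2 alone 11 hosts rose and 9 fell, where 39.2% of all features were called (21.2% higher, 17.9% lower). With siSFPQ-3 alone 13 rose and 11 fell, where 43.4% were called (23% higher, 20.4% lower). These comparisons share the siCtrl libraries. Of the 14 hosts that rose with both together, 9 were called with each siRNA, and of the 11 that fell, 7. All 25 had the same sign with each siRNA. Between siSFPQ-3 and siSFPQ-2, 0 hosts passed, where 0.101% of all features did (0.0781% higher, 0.023% lower). At an unadjusted p under 0.05, 3 hosts were higher and 6 lower with siSFPQ-3, and edgeR and DESeq2 on recovered reads also called 0. DALRD3, a transfer RNA methylation cofactor gene that carries miR-425 and miR-191, was the other host besides SREBF1 that passed with siSFPQ-3 alone and lay on opposite sides of siCtrl in the siRNAs' fold changes. It had 758 to 1087 normalized reads in the siSFPQ libraries, against 935 and 986 with siCtrl, and the difference did not pass (adjusted p = 0.153).

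The remaining hosts that did not pass were CLCN5, an endosomal chloride transporter gene with 8 same-strand microRNA genes in its span, HNRNPK, an RNA-binding protein gene with miR-7-1, ZRANB2, a splicing factor gene with miR-186, IARS2, a mitochondrial tRNA synthetase gene, and RCL1, a ribosome biogenesis gene with miR-101-2. Over all 17 hosts that did not pass, log2 fold changes ran from -0.24 to 0.37. ZRANB2 had 692 to 947 normalized reads in the siSFPQ libraries, against 673 and 689 with siCtrl. It passed with siSFPQ-3 alone (0.37, adjusted p = 0.0445), where the difference between the siRNAs did not pass (adjusted p = 0.618), and with both siRNAs without the first siSFPQ-2 library (0.35, adjusted p = 0.0221) or the first siSFPQ-3 library (0.33, adjusted p = 0.0318). In all, 17 hosts had every siSFPQ library above both siCtrl libraries and 14 had every one below, where 30.3% and 31% of all features did. In the authors' deposited table, 12 of the hosts were higher and 11 lower at their adjusted p under 0.05.

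Gene span moved with the share of genes that rose, so hosts were read against genes of like span, in classes chosen with earlier results known. Of 11 hosts under 30 kb, 0 rose and 3 fell, where 18% and 29.9% of protein-coding features of that span did. Of 13 hosts of 30 to 100 kb, 7 rose and 4 fell, where 33% and 18.1% did, and of 18 hosts of 100 kb or more, 7 rose and 4 fell, where 51.1% and 11.7% did. Among the longest hosts LPP (738 kb) rose and DNM3 (577 kb) and PTPRN2 (1049 kb) fell, while PRKG1 (1308 kb) and PDE4D (1553 kb) did not pass. No test was made of these counts.

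**Figure D3:**
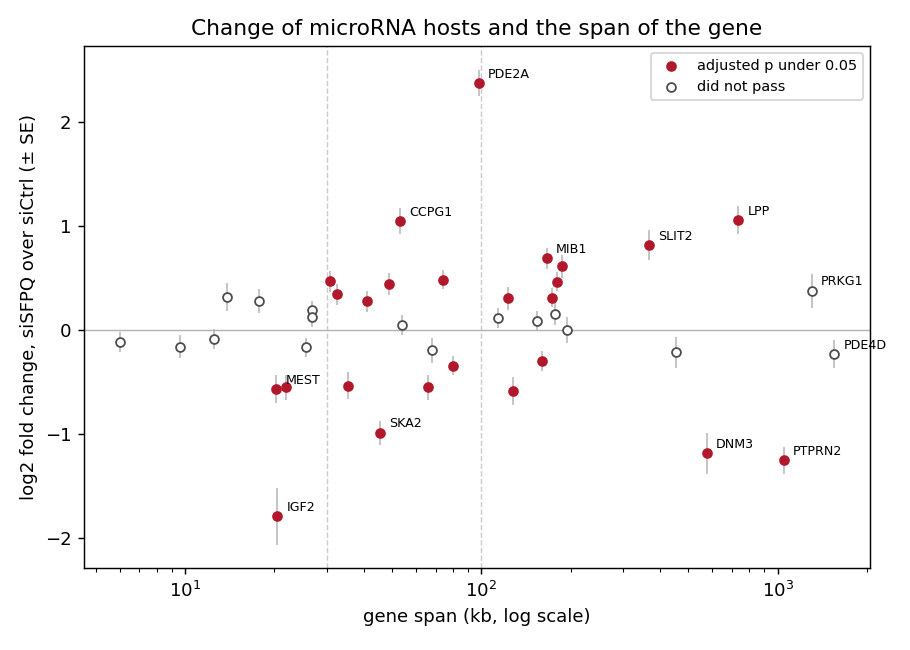
Log2 fold change of each host (siSFPQ over siCtrl, bars ± SE) against the span of the gene in kb on a log axis, filled where the adjusted p is under 0.05, with dashed lines at 30 and 100 kb. Filled points above 0 start at spans over 30 kb, and the hosts at the far right, PDE4D and PRKG1, did not pass.

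Deposited profiles hold signal for 500 bins per gene. Bins 1 to 100 were taken as upstream, the next 300 as the gene body and the last 100 as downstream, a layout that is assumed here. Ratios of signal in the last 100 over the first 100 body bins (distal ratio), past the end over the last 100 body bins, and in the first 5 body bins over the rest (start ratio) were compared on a log2 scale. Among the 42 hosts, 0 passed in any of these ratios, where 1.72%, 0% and 0.336% of 20529 genes with a profile did (limma with Benjamini-Hochberg adjustment). Of these genes, 1.18% were higher and 0.541% lower in the distal ratio, and 0.151% were higher and 0.185% lower in the start ratio. At an unadjusted p under 0.05, 1 host was higher and 1 lower in the distal ratio, 1 and 2 past the end, and 2 and 11 in the start ratio. For the start ratio this is 26.2% of the hosts lower, beside 23.5% of all genes, and the median difference was -0.26 in the hosts and -0.25 in all genes. Lower start signal relative to the body in the hosts was therefore near that of genes at large.

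SLIT2 had the largest shift of signal along the gene body. Its log2 ratio of distal over proximal signal was -1.05 and -2.10 with siSFPQ-2, -1.32 and -1.59 with siSFPQ-3, against -0.05 and -0.24 with siCtrl. The groups did not overlap, and the difference of -1.37 (SE 0.32) did not pass (adjusted p = 0.0844). The microRNA gene MIR218-1 lies 276 kb from the start of the 369 kb SLIT2 gene (chr4:20528275-20528384). Mean bin signal before it, without the first 5 body bins, was 5.36 and 7.53 with siSFPQ-2, 5.19 and 5.25 with siSFPQ-3, against 3.92 and 4.35 with siCtrl. Past the microRNA the order was turned round, with 3.18 and 2.11 with siSFPQ-2, 2.94 and 2.41 with siSFPQ-3, against 4.03 and 3.59 with siCtrl. The turn came before the microRNA was reached. In the last plotted window that ends before it, mean signal was 2.81 to 3.47 with siSFPQ, against 4.77 and 4.92 with siCtrl. The reads of the whole gene, which rose, therefore stand neither for the stretch beyond miR-218-1 nor for the part just before it. These profiles were singled out after their values were seen, and bins differ in length between genes, so that levels are compared within SLIT2 alone.

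PANK1 was lower on both sides of miR-107, at 79.8% of its span. Signal before the microRNA was 19.8 and 20.1 with siSFPQ-2, 20.9 and 14.0 with siSFPQ-3, against 24.5 and 25.5 with siCtrl, and after it 13.9 and 11.2 with siSFPQ-2, 12.8 and 8.34 with siSFPQ-3, against 23.6 and 19.7 with siCtrl. The ratio of after over before was 0.56 to 0.70 in the siSFPQ libraries and 0.77 and 0.96 with siCtrl, which do not overlap. In AATK, which rose, the ratio of signal after over before miR-338 was 1.04 to 1.29 in the siSFPQ libraries and 1.45 and 1.60 with siCtrl. In LPP signal before miR-28 was 82.1 to 121.9 in the siSFPQ libraries, against 38.9 and 39.4 with siCtrl, and after it 58.1 to 91.2 in the siSFPQ libraries, against 30.3 and 35.3 with siCtrl. The siSFPQ libraries of LPP were higher on both sides. With the start bins left out, as in the values above, the LPP ratio of after over before was narrowly lower. It was 0.63 to 0.7741 with siSFPQ, against 0.7785 and 0.90 with siCtrl. With the start bins kept in, the groups overlapped (0.61 to 0.75 with siSFPQ, against 0.74 and 0.85). The distal ratio of LPP overlapped too and did not pass (limma, adjusted p = 0.594). In SKA2 signal was lower in all siSFPQ libraries both before and after miR-454. There the ratio of after over before was higher, at 0.47 to 0.53 with siSFPQ, against 0.40 and 0.36 with siCtrl. At miR-301a in SKA2 the groups overlapped in this ratio. In SMC4 the ratio at miR-15b was also higher, at 0.44 to 0.59 with siSFPQ, against 0.405 and 0.409 with siCtrl. In DNM3 signal before miR-199a-2, at 52.5% of the span, was 1.65 to 5.28 with siSFPQ, against 8.39 and 10.03 with siCtrl. Past it signal was higher in every library, at 8.23 to 16.4 with siSFPQ, against 29.7 and 30.95 with siCtrl. The groups overlapped in some windows before it, such as bins 141 to 150 (1.82 to 12.2 with siSFPQ, against 4.20 and 9.21). No direction common to the hosts is read from these examples.

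PDE2A had the largest fall in the start ratio, at 2.62 and 2.44 with siSFPQ-2, 2.84 and 2.64 with siSFPQ-3, against 3.80 and 3.77 with siCtrl on the log2 scale (difference -1.15, SE 0.16, adjusted p = 0.0591). The body of PDE2A thus gained more than its start did. The past-end ratio was higher too (1.58, adjusted p = 0.275), but with siCtrl the signal past the end was 0 in most windows. That ratio therefore rests on few bins. PTPRN2 had the next largest fall in the start ratio, -0.997 (adjusted p = 0.0652), followed by TLN2 (-0.95), CCPG1 (-0.86), PANK3 (-0.82), MIB1 (-0.77) and GPC1 (-0.70), with adjusted p-values of 0.0703 to 0.118. None of these passed in this fit. With a trend in the fit, PDE2A, PTPRN2, TLN2, CCPG1, PANK3 and GPC1 did, 6 hosts where 10.3% of all genes with a profile were lower.

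**Figure D4:**
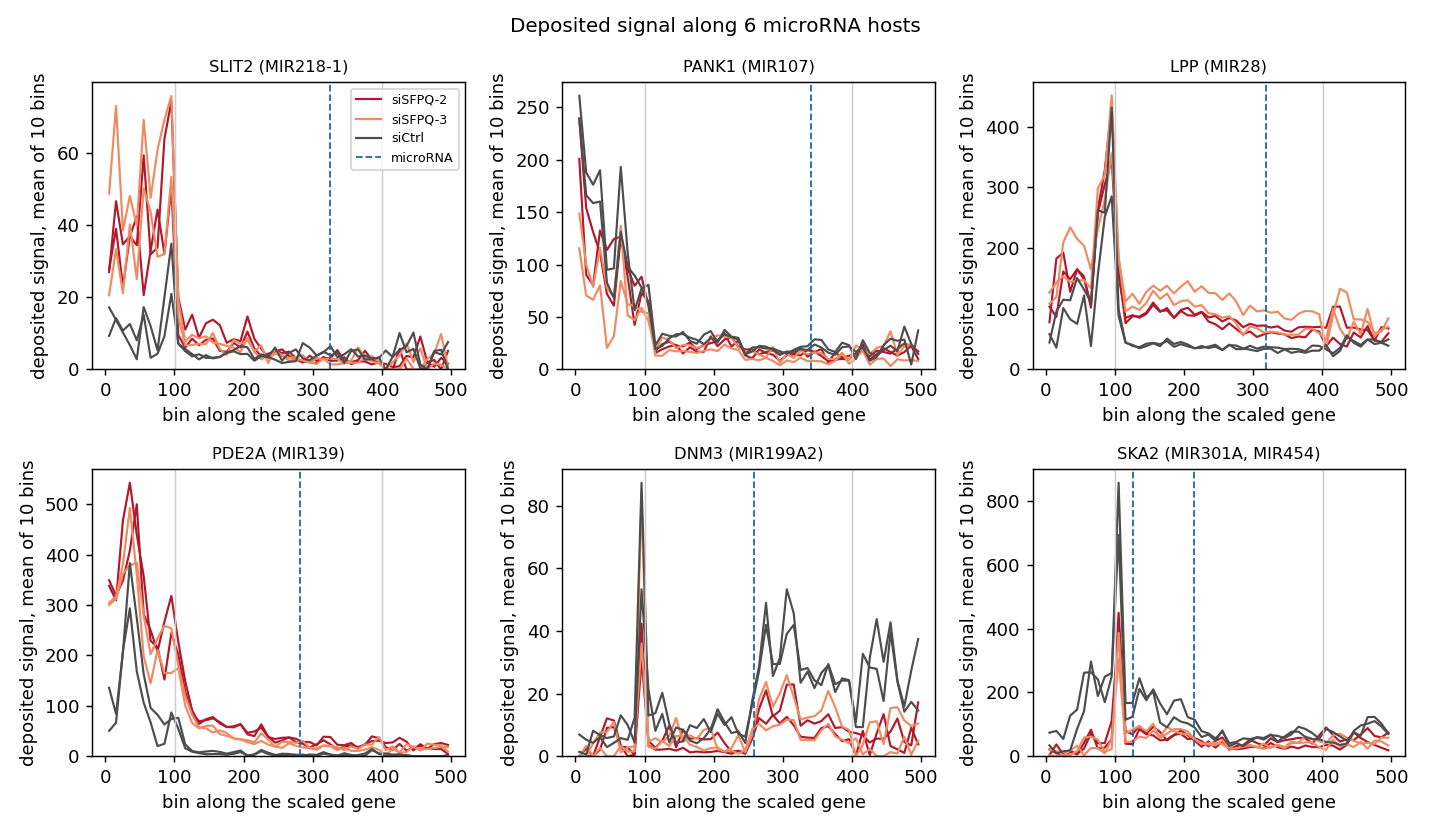
Deposited signal (mean of 10 bins) along 6 hosts, 1 line per library, with grey lines at the assumed gene start and end and a dashed line at the microRNA. In SLIT2 the siSFPQ lines lie above siCtrl near the start and fall below it before MIR218-1 is reached. Their mean over the stretch past MIR218-1 is lower too. In LPP and PDE2A the siSFPQ lines lie above throughout most of the body, and in DNM3 and SKA2 below. In DNM3 the groups overlap in some windows before MIR199A2.

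**Figure D5:**
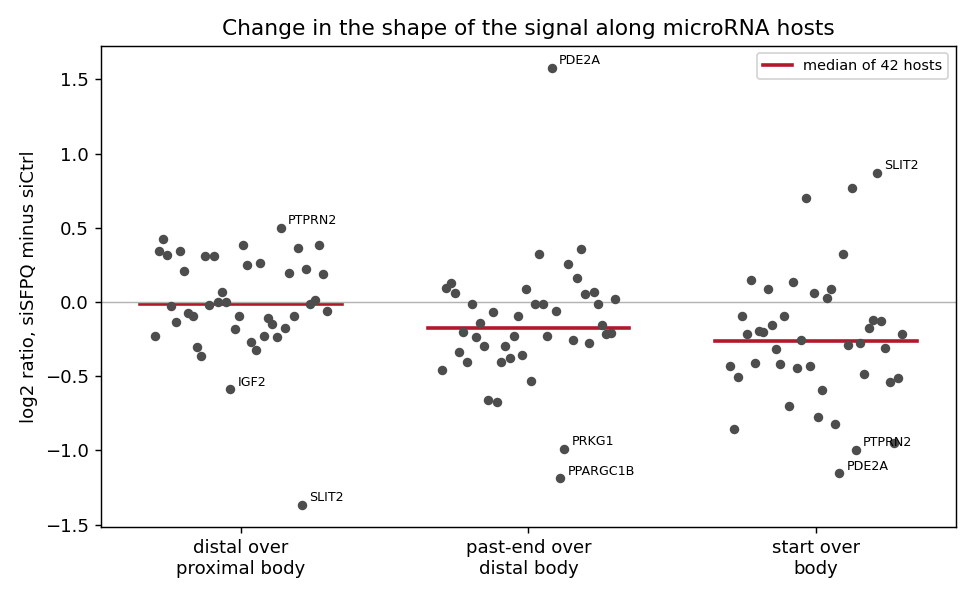
Difference in log2 signal ratio, siSFPQ minus siCtrl, for each of the 42 hosts (points, in alphabetical order within each ratio) with the median as a bar, for the distal, past-end and start ratios. SLIT2 stands lowest in the distal ratio (-1.37) and PDE2A lowest in the start ratio (-1.15), and 0 hosts passed the test in any of these ratios.

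Of the 70 microRNA genes in the hosts, 47 had a row of their own in the gene table and 6 reached the filter. Reads of such a short feature cannot be told from those of its host. MIR483 in IGF2 had 20.5 and 3.32 normalized reads with siSFPQ-2, 14.0 and 2.03 with siSFPQ-3, against 30.3 and 29.9 with siCtrl, and fell (log2 fold change -1.95, adjusted p = 0.0396). MIR214, on the strand opposite to DNM3, fell by 1.34 on the log2 scale (adjusted p = 0.00218). MIR335 in MEST had 36.5 to 60.2 with siSFPQ, against 65.4 and 70.1 with siCtrl, all lower, but did not pass (-0.57, adjusted p = 0.0703). MIR199A2 (-0.49, adjusted p = 0.196), MIR638 near the start of DNM2 (1.06, adjusted p = 0.0652) and MIR7-1 in HNRNPK (-0.05, adjusted p = 0.922) did not pass either.

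Genes of the microRNA pathway were counted beside their hosts, from a list of 26 tested genes. Of these, 6 rose and 3 fell, below the 48% called over all features, with a median log2 fold change of -0.01. Rises were seen for TUT7 and TUT4 (0.74 and 0.61), which add uridines to microRNA precursors, and the list's other rises were NCBP1, LIN28A, DICER1 and TNRC6B. RAN, the GTPase that powers nuclear export of precursors, fell (-0.46, adjusted p = 0.00619), as did DGCR8 (-0.39, adjusted p = 0.00672), the partner of DROSHA, and DDX17. DROSHA itself did not pass (-0.17, adjusted p = 0.268).

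Another protein-coding or long non-coding gene of the table overlapped the span of 13 of the 42 hosts, among them 9 of the 25 that passed. Beside those named above, PANK2 shares 2.58 kb with RNF24 on the opposite strand, which had a log2 fold change of 0.86, and MEST shares 4.80 kb with the antisense gene MESTIT1 (-0.52). LPP, NFYC, EVL and AATK have overlaps of 1.07 kb or less each. The part of these overlaps in the counts was not tested.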

How the data were processed

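The members are 48 gene symbols named as hosts of microRNAs, and they, the gene lists and the comparisons were chosen with earlier results of these data known. The authors deposited normalized signal per gene for 6 PRO-seq libraries, in values that are whole reads times 1 factor per library. Beside it stand the authors' own deposited log2 fold change with its error, fold change as a ratio, p-value, adjusted p-value and a test statistic (a score), of which only the direction and the adjusted p are quoted. They also deposited signal profiles in 500 bins per gene, whose scaling the labels do not state. The submitters' processing notes name, for the deposited values, Bowtie2, DESeq2 1.38.1, UMI-tools, SAMtools 1.3.1 and cutadapt 1.14, with the builds hg38 and dm6; the order of steps, the annotation and the part of a gene counted were not given in the sources used here.

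After 240 repeated lines were removed, 25827 features remained, and 21773 with at least 10 normalized reads in 2 or more libraries were tested. limma 3.58.1 (R 4.3.3) was fitted to log2(normalized reads + 1) with a trend, on the 3 groups together. Fold changes are on that scale, and p-values were adjusted by Benjamini-Hochberg over all tested features. Library totals of 12072813 to 18475158 reads were recovered from the steps of the deposited values, all of which came out whole within 0.1 reads (100%). edgeR 4.0.16 and DESeq2 1.42.0 on those reads were alternatives, with other pseudocounts, filters and scalings, a fit without trend, a replicate block and leaving out each library. Profile ratios were fitted by limma without trend. Scripts were tested on simulated data.

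Values per library are given for hosts past the threshold and hosts of shared microRNA families, and other hosts by range and count. The split of hosts by span, the pair ratios and the examples of profiles were chosen with values seen. Gene positions, strands and microRNA sequences are those of RefSeq tables on GRCh38.p14, without exons.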

Additional observations from a re-analysis of the deposited data

Results flagged for a closer look

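Of the 6 hosts without a row in the gene table, 2 had deposited profile signal in all 4 siSFPQ libraries above both siCtrl libraries, as had 18.4% of all 51991 genes with a profile and 9.42% of those without a row in the gene table. PTPRN, a secretory granule protein gene and host of miR-153-1, had a mean body signal of 30.5 and 28.1 with siSFPQ-2, 25.6 and 26.8 with siSFPQ-3, against 23.5 and 22.3 with siCtrl. ASTN1, a neuronal adhesion gene and host of miR-488, had 0.143 and 0.122 with siSFPQ-2, 0.128 and 0.101 with siSFPQ-3, against 0.0978 and 0.0874 with siCtrl. These differences were not tested.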

How the results depend on the processing

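Of the 25 hosts called with both siRNAs together, 14 kept their call in all 16 alternatives: CCPG1, CHM, LPP, MIB1, PDE2A, SLIT2, SREBF2 and WWP2 were higher, and COPZ2, DNM3, IGF2, PANK1, PTPRN2 and SKA2 lower. No host reversed its direction where the main fit or the alternative called it (0 of these results). A change of sign in a host that neither fit called was not counted as a reversal. Leaving out 1 library each gave 9 to 15 hosts higher and 6 to 13 lower with both siRNAs, 7 to 11 and 5 to 9 with siSFPQ-2, and 7 to 13 and 8 to 12 with siSFPQ-3; between the siRNAs and in the profile ratios it gave 0. The lowest counts with both siRNAs came without siCtrl library 2 (9 higher) and without siCtrl library 1 (6 lower). Without trend, 7 hosts were higher with siSFPQ-2. In the start ratio 1 host was lower with c at the 20th percentile and 6 with a trend, against 0 as reported, where 4.06%, 10.3% and 0.185% of all genes with a profile were lower. Replicate numbers are shared between the groups but nothing says that they pair libraries. Deviations of same-numbered libraries correlated at 0.0529 for siSFPQ-2 with siCtrl and 0.0587 for siSFPQ-3 with siCtrl. Between siSFPQ-3 and siSFPQ-2 they correlated at 0.382, so the siSFPQ libraries may share some of their spread, which was not tested. With the replicate block, 17 hosts were higher and 11 lower with both siRNAs, where 27.7% and 27.1% of all features were, against 24.8% and 23.2% without it. EGFL7, PRKG1 and ZRANB2 passed under it (adjusted p = 0.0368, 0.0226 and 0.0186), and 3 hosts, DALRD3, MEST and SREBF1, were lower with siSFPQ-3 than with siSFPQ-2. CTDSPL and PANK2 lost their calls with DESeq2 (adjusted p = 0.0802 and 0.0641). The causes were not tested. With 2 libraries a group, small changes could not be resolved.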
